A study of Homo sapiens with 2 samples.

Results

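Among the wide DNase I hotspots of the osteosarcoma line Saos-2, 1404 had no counterpart in or near the hotspots of U2OS, a second osteosarcoma line. A hotspot is a stretch of the genome that DNase I cut more often than its surroundings. A Saos-2 hotspot was counted when it lay on chromosomes 1 to 22, was at least 400 bp wide and had no U2OS hotspot within 2 kb. Hotspots in dense chains, with 8 or more Saos-2 hotspots at most 2 kb from their neighbours, were left out. Of 51556 Saos-2 hotspots, 50120 lay on these chromosomes and 9032 of them were wide. A U2OS hotspot overlapped 7259 of the wide ones, and a further 271 had one within 2 kb without overlap. Of the remaining 1502, 98 lay in 9 chains on 5 chromosomes, 51 of them on chromosome 1, and were left out. The 1404 that remained made up 15.5% of the wide Saos-2 hotspots (Wilson 95% interval 14.8 to 16.3%) and covered 748501 bp. They are called Saos-2-only wide hotspots below. They were chosen by width, distance to U2OS hotspots and chain size, so values of these measures are descriptions.

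The study profiled Saos-2 and U2OS by DNase-seq with 1 library per line, and the labels name no treatment or genotype. Nuclei of both lines were digested with DNase I for 3 min at 37 °C. With 1 library each, every difference is one between 2 libraries and has no replicate check. The intervals are for counting error alone, and since nearby hotspots depend on one another they are narrower than the real uncertainty. Read depth is unknown, so a U2OS hotspot that was not called may have been below detection. The same rule with the lines exchanged gave 2317 U2OS-only wide hotspots, 20.6% of 11230, and the 7259 overlapped hotspots served as the shared set. Hotspots at the starts of osteoblast marker genes were present for 4 of 10 genes in each line. For markers of other cell types the counts in Saos-2 and U2OS were 1 and 2 of 5 epithelial, 1 and 1 of 4 haematopoietic, 0 and 2 of 4 neural and 0 and 1 of 3 muscle genes. None of the 3 endothelial or 3 hepatic markers had one in either line.

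DNase I reaches DNA that is not wrapped around nucleosomes, and the sites it cuts most are promoters, enhancers, insulators and other regulatory elements. Promoter sites are often shared between cell types, while enhancer sites far from gene starts are often cell-type-specific. A wide site can hold several neighbouring factor binding sites, or a nucleosome-free gene body such as that of a heavily transcribed small RNA gene.

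A listed start of 49 protein-coding genes lay inside 47 of the Saos-2-only wide hotspots, and promoter sequences are shown for 6 of these genes. ZNF132, SORBS2, RAB39A and H2BC18 had the most significant of these 47 hotspots. CNOT2 and ELF1 are shown because their hotspots lay over 50 kb from any U2OS hotspot and belonged to groups of 3. They were chosen after the values were seen. Each sequence is 5′ to 3′ on the strand of the gene, from 250 bases before the start to 50 bases from it on, from RefSeq on GRCh38.p14. Capitals mark any match, on either strand, to 9 short motifs. The motif TGANTCA is that of AP-1, the family of FOS and JUN factors. The motif AACCACA is that of the RUNX factors, which direct bone and blood development. For the TEAD factors, the partners of YAP in Hippo signalling, the letters searched were GGAATG. For homeobox factors, which pattern the embryo, they were TAATTA. The E-box of basic helix-loop-helix factors was searched as CAGCTG. Forkhead (FOX) factors were represented by TGTTTAC in the same way. The letters for the zinc finger factors of the GATA family were AGATAA. The GC box, which SP factors bind in many promoters, was GGGCGG. The long palindrome of the NFI factors was the last of the 9, and a base in overlapping matches is marked once.
ZNF132, chr19:58440104-58440403, minus strand: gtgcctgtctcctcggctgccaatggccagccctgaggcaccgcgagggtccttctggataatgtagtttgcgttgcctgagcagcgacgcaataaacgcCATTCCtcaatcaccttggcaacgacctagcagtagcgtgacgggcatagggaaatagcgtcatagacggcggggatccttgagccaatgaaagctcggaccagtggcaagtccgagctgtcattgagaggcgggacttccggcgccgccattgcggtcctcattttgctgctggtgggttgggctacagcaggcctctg
SORBS2, chr4:185933079-185933378, minus strand: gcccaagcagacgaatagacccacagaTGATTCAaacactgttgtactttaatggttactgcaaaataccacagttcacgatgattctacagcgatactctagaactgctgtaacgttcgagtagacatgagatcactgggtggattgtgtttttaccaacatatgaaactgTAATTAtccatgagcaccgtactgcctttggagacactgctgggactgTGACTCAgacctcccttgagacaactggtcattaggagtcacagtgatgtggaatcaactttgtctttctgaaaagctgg
RAB39A, chr11:107928198-107928497, plus strand: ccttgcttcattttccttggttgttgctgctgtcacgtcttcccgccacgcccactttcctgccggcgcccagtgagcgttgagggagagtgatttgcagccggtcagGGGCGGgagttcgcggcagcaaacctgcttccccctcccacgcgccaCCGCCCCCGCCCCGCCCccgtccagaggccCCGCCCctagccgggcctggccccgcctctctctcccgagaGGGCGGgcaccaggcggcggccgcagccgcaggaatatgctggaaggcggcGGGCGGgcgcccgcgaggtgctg
H2BC18, chr1:149812321-149812620, minus strand: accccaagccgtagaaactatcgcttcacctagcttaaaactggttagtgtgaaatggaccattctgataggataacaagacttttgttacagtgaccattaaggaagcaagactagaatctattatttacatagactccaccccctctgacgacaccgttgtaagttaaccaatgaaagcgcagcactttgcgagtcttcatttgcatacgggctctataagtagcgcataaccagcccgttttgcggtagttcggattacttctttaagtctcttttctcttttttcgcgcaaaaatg
CNOT2, chr12:70242768-70243067, plus strand: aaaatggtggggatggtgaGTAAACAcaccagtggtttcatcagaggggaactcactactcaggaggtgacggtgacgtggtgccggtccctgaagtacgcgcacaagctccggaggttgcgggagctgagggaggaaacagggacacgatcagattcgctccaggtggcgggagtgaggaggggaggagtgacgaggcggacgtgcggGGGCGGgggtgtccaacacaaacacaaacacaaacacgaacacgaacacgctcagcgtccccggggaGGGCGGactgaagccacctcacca
ELF1, chr13:41061337-41061636, minus strand: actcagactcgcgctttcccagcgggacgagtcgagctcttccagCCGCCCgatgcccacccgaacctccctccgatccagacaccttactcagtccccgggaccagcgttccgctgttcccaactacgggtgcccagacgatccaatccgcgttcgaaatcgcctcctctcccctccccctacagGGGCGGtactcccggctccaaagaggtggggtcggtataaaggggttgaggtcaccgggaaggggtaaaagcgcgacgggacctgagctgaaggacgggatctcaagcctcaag

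All 6 windows lay wholly inside their hotspot. RAB39A, a small GTPase of the Rab family, had 7 GC boxes, a GC content of 72.0% and a hotspot of 492 bp. SORBS2, an adaptor protein of the actin cytoskeleton, had 2 AP-1 matches and 1 homeobox match, and a GC content of 43.7%. The H2BC18 window, at a histone H2B gene, held none of the 9 motifs. ZNF132, a zinc finger gene, had 1 TEAD match, and CNOT2, a subunit of the CCR4-NOT deadenylase complex, had 1 FOX match and 2 GC boxes. ELF1, an ETS-family transcription factor, had 2 GC boxes. These matches describe the letters of the windows and do not show that a factor bound there.

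Mature microRNA sequences are shown for the hairpins that a Saos-2-only wide hotspot covered, MIR5087 and MIR4270, and for MIR760, which lay between 2 such hotspots. They were chosen after the values were seen. Capitals mark the seed, bases 2 to 8.
hsa-miR-5087, chr1:148334522-148334544, minus strand: gGGUUUGUagcuuugcuggcaug
hsa-miR-4270, chr3:15496279-15496298, minus strand: uCAGGGAGucaggggagggc
hsa-miR-760, chr1:93846880-93846899, plus strand: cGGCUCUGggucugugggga

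The 3 seeds differ. Of 1461 hairpins in the RefSeq table, 26 lay within 10 kb of a Saos-2-only wide hotspot. The MIR5087 hotspot (845 bp) also covered RNVU1-21, a gene named in the variant U1 family that is described further on. The MIR4270 hotspot was 412 bp wide and lay 61.3 kb from any U2OS hotspot. MIR760 lay 0.331 kb from one hotspot and 0.476 kb from the other, both at the start region of BCAR3.

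By median significance these hotspots lay below wide shared ones and above Saos-2 hotspots of all widths. Their median width was 488.5 bp, with quartiles of 434.75 and 581 bp and a maximum of 1702 bp. The authors' significance, a −log10 value capped at 100, had a median of 9.98, with quartiles of 6.63 and 14.7. Wide shared hotspots had medians of 512 bp and 13.5, and U2OS-only wide hotspots, in the other list, 478 bp and 12.1. Saos-2 hotspots of all widths on chromosomes 1 to 22 had medians of 239 bp and 4.06, and an upper quartile of significance of 7.63. Only 38 of the 1404 reached a significance of 30. At the width limit, the 215 hotspots of 400 to 419 bp had a median significance of 7.42, and the 252 that were 380 to 399 bp wide but met the other conditions had 7.96. At the distance limit, the 36 just inside had a median of 9.74 and the 38 just outside 8.45, in bands of 500 bp.

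**Figure D1:**
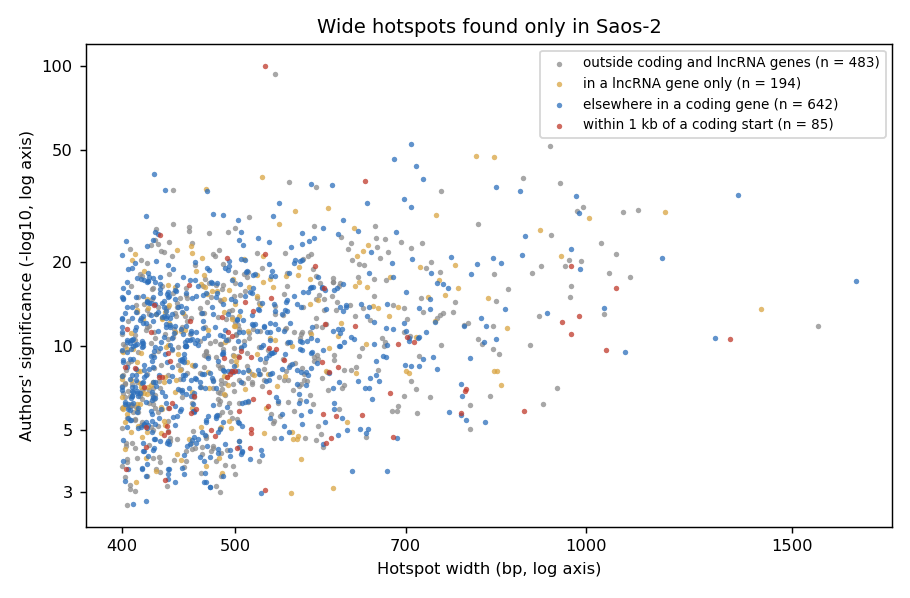
Width in bp (horizontal, log axis) and the authors' −log10 significance (vertical, log axis) of the 1404 Saos-2-only wide hotspots, 1 point each, coloured by place relative to genes. Points of all 4 classes overlap; 38 points lie at a significance of 30 or more and 20 at a width of at least 1 kb.

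U2OS hotspots lay in the wider neighbourhood of most of them. The median distance to the nearest U2OS hotspot was 18.8 kb, and 1183 (84.3%) had one within 50 kb. For U2OS-only wide hotspots the median distance to a Saos-2 hotspot was 30.8 kb, and 63.7% had one within 50 kb. These distances were measured to lists of unlike length, 63388 hotspots in U2OS and 51556 in Saos-2. From a Saos-2-only wide hotspot, the nearest other Saos-2 hotspot lay at a median of 8.39 kb. A Saos-2 neighbour within 2 kb, where the rule allows no U2OS hotspot, was present for 365, and 1039 stood alone at that distance.

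Saos-2-only wide hotspots lay mainly away from gene starts. Within 1 kb of a protein-coding start lay 85 of them, or 6.05% (4.92 to 7.43%). The share was 41.1% (39.9 to 42.2%) for wide shared hotspots and 9.41% (8.29 to 10.7%) for U2OS-only wide hotspots. Elsewhere in a protein-coding gene lay 642 (45.7%), in a long non-coding RNA gene only 194 (13.8%), and outside both kinds of gene 483 (34.4%). The median distance to a coding start was 55.7 kb, against 10.97 kb for shared and 62.7 kb for U2OS-only hotspots. A distance over 500 kb was found for 96 (6.84%). The table gave no start for 4025 of 19126 coding genes, including all 715 on chromosome 8, and both ends of the gene were used for these.

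Along the body of a gene the hotspots were spread evenly. For 588 pairs of a hotspot and a gene with a given strand, the gene was divided into 5 equal parts, which from the 5′ end held 17.9, 19.2, 19.05, 21.9 and 21.9% of them. The part at the 5′ end held 40.7% of the wide shared hotspots and 25.5% of the U2OS-only ones. Hotspots near a coding start were somewhat wider and less significant, with medians of 516 bp and 8.30, than those elsewhere in coding genes, with 479 bp and 10.2.

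**Figure D2:**
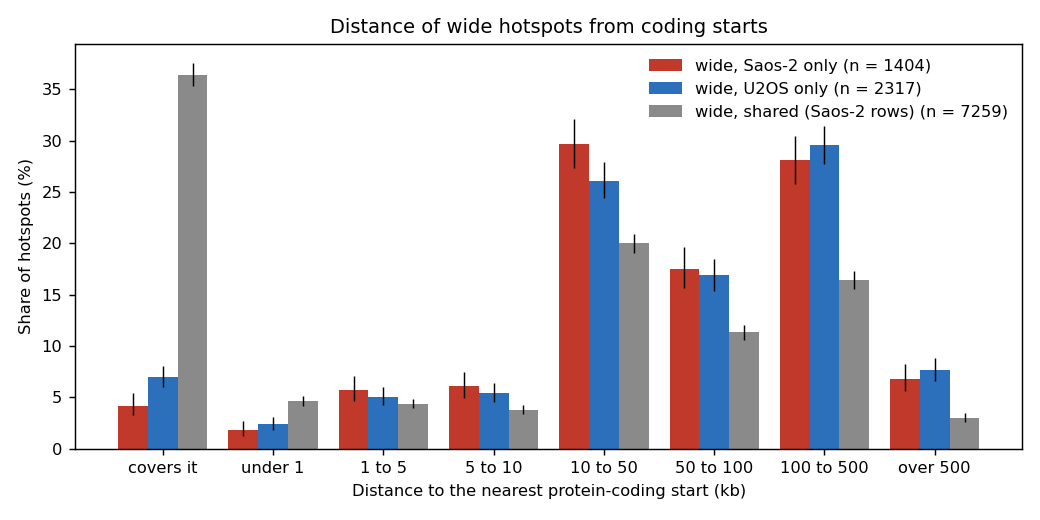
Share of hotspots (%, vertical) by distance to the nearest protein-coding start (kb, horizontal) for Saos-2-only, U2OS-only and shared wide hotspots; error bars are Wilson 95% intervals. Shared hotspots cover a start in 36.4% of cases, Saos-2-only ones in 4.20% and U2OS-only ones in 6.99%.

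At the 49 listed starts the significance ran from 4.30 to 24.9 with a median of 9.08, and the hotspots of 9 of the genes lay over 50 kb from any U2OS hotspot. ZNF132 had the highest value, 24.9, followed by SORBS2 at 21.3, RAB39A at 20.6, H2BC18 at 19.3 and TLE4, a Groucho-family corepressor, at 19.3. HERC5, an interferon-induced ligase for ISG15, followed at 16.5, in a hotspot 58.6 kb from any U2OS hotspot. MX1, an interferon-induced antiviral GTPase, had 11.2. The start of HELLS, a chromatin remodeller, had 6.11, at 100.8 kb from the nearest U2OS hotspot. ELF1 and WBP4 start on opposite strands within the same hotspot of 787 bp, and H2AC8 and H2BC8 share one of 516 bp.

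The start windows of these 49 genes had a median GC content of 60.7%, against 64.0% for starts in wide shared hotspots and 62.7% for all 15101 genes with a listed start. Where a gene had several starts, the first by coordinate was used. It was taken from covered starts in the hotspot sets and from all 21156 listed starts for all genes. The windows of all genes were thus not chosen in the same way. A CpG observed-to-expected ratio of at least 0.6, as in CpG-rich promoters, was present in 39 of 49, or 79.6% (66.4 to 88.5%). The share was 93.6% for wide shared, 81.3% for U2OS-only and 64.7% for all listed genes. The AP-1 motif was present in 7 of 49 genes, 14.3% (7.10 to 26.7%). It was present in 3.99% (3.31 to 4.80%) of shared, 5.76% (2.94 to 10.9%) of U2OS-only and 5.91% (5.54 to 6.29%) of all genes. The Saos-2-only and U2OS-only intervals overlap. The GC box was present in 61.2% (47.2 to 73.6%), against 75.4% of shared, 66.9% of U2OS-only and 57.6% of all. TEAD was found in 20.4% (11.5 to 33.6%) against 11.9% of all, RUNX in 8.16% (3.22 to 19.2%) against 3.68%, and FOX in 8.16% (3.22 to 19.2%) against 2.68%. RUNX and FOX rested on 4 genes each. E-box (10.2 against 17.8%), GATA (10.2 against 7.85%), homeobox (2.04 against 3.50%) and NFI (2.04 against 0.0397%) each rested on 5 genes or fewer.

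The 10 most significant hotspots were spread over 6 chromosomes. The highest, 100, lay on chromosome 3 from 10205 to 10734, by LOC124905351 near the end of the chromosome. The next, 93.2, lay on chromosome 4 from 51107126 to 51107666, 735 kb from the nearest U2OS hotspot and 726 kb from the nearest coding gene, DCUN1D4. How reads matching several places were placed is not given in the sources used here, and its part in these values was not tested. A hotspot of 707 bp inside SAMD12 on chromosome 8 had 52.7. One of 930 bp that overlaps MTRNR2L8 beside AMPD3 on chromosome 11 had 51.7. KIT, the receptor of stem cell factor, had a hotspot of 684 bp inside the gene with 46.7, at 3.81 kb from a U2OS hotspot, and a second, 5.50 kb outside it, with 38.4. WDR17 had 44.0 and PEPD, a dipeptidase needed for collagen turnover, 40.9, both inside the gene. The other 3 lay in long non-coding RNA genes, with 47.7 in LINC02374, 47.1 in LOC105370174 and 40.2 in LINC00536.

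The widest were of other kinds. A hotspot of 1702 bp inside ZNF99 on chromosome 19 was followed by one of 1580 bp over the tRNA genes TRG-TCC2-1 and TRH-GTG1-1 on chromosome 1. LINC01504 held one of 1412 bp, and ADCY7, an adenylyl cyclase, one of 1349 bp with a significance of 34.7. PMVK, a kinase of the mevalonate pathway, had a hotspot of 1329 bp at a listed start. TAFA4 (1290 bp), LINC01622 (1169 bp) and ASIC2, a proton-gated ion channel (1160 bp), held others inside the gene. The last pair of the 10, of 1108 and 1090 bp, lay outside coding genes, 265 kb from TLE1 and 58.9 kb from PSMG1.

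Several of the hotspots covered small RNA genes of chromosome 1. The variant U1 genes (RNVU1) encode versions of U1, the RNA of the spliceosome that recognises the 5′ splice site. Of 25 annotated RNVU1 genes, 22 lay on chromosome 1. These were taken by name, whatever their annotated type. A Saos-2-only wide hotspot overlapped 8 of the 25, all among those on chromosome 1. Among the 8, RNVU1-21 was not annotated as a small nuclear RNA gene. Counting hotspots of any width, 12 of the 25 had one in Saos-2 and 1, RNVU1-6, in U2OS. Of the 4 RNU1 genes, which encode canonical U1, 2 had a hotspot in each line and 0 a Saos-2-only wide one. The 8 hotspots had significances of 7.01 at RNVU1-19, 11.5 at RNVU1-15, 16.0 at RNVU1-14, 16.0 at RNVU1-31, 18.1 at RNVU1-8, 7.25 at RNVU1-21 (with MIR5087), 23.3 at RNVU1-27 and 6.83 at RNVU1-30. They lay between 6.02 kb (RNVU1-27) and 144 kb (RNVU1-14) from a U2OS hotspot. These genes are near-identical copies and how reads matching several copies were placed is not given in the sources used here, so the count over single copies is uncertain. In the 10 Mb of chromosome 1 from 140 to 150 Mb, Saos-2 had 293 hotspots of any width and U2OS 77.

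Of 439 transfer RNA genes, 10 had a Saos-2-only wide hotspot and 8 a U2OS-only one, with hotspots of any width at 102 in Saos-2 and 106 in U2OS. Of the 10, 5 lay on chromosome 1, as did 98 of all 439. Of the 5, 4 lay within a stretch at higher coordinates than HJV. Transfer RNA genes are repeated too, so these counts carry the same uncertainty of read placement. Replication-dependent histone genes, which encode the histones made in S phase, had a Saos-2-only wide hotspot at 4 of 73. Hotspots of any width were found at 41 of them in Saos-2 and 20 in U2OS, 19 of them in both. Genes resembling mitochondrial DNA were overlapped in 3 cases, at MTRNR2L8 (51.7), MTRNR2L12 (38.1) and the neighbours MTATP8P2 and MTATP6P28 (32.3), or 3 of 1404 hotspots. The count was also 3 among the 7259 wide shared hotspots, and 0 among the 2317 U2OS-only ones, which allows a share of up to 0.129%. Their sequence is close to that of mitochondrial DNA, and the part of read placement in these values was not tested.

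Clusters were formed from Saos-2-only wide hotspots at most 50 kb apart. There were 1162 single hotspots and 108 clusters of 2 or more, which held 242 hotspots (17.2%); 19.3% of U2OS-only wide hotspots lay in clusters by the same distance. Clusters had 2 hotspots in 87 cases, 3 in 16 and 4 in 5. No U2OS hotspot of any width lay inside 83 of the 108. The rule allows none within 2 kb of each hotspot and the median span of these clusters was 22.1 kb, so this count partly follows from the rule.

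The 5 clusters of 4 differed in setting. The chromosome 1 cluster ran from 145985744 to 146039635. In it, 1 hotspot (significance 6.48) lay at lower coordinates than TXNIP, the thioredoxin-interacting protein. The other 3 (17.6, 11.7 and 13.2) lay over tRNA genes at higher coordinates than HJV, a coreceptor in iron homeostasis. This cluster held 11 Saos-2 and 2 U2OS hotspots in all. On chromosome 12, from 105983632 to 105996552, 4 hotspots of 9.64, 7.72, 13.7 and 20.2 filled 12.9 kb, with NUAK1, an AMPK-related kinase, 66.8 kb away and no U2OS hotspot. Around one end of TLE1, another Groucho-family corepressor on chromosome 9, 4 hotspots were spread over 83.6 kb that also held 4 U2OS hotspots. Those of 15.2, 13.6 and 19.5 lay outside the gene and that of 8.05 inside it. On chromosome 4, 126 kb from GATB, 4 hotspots of 8.77 to 11.2 spanned 70.1 kb without a U2OS hotspot. At COL6A1, which encodes a chain of type VI collagen, 1 hotspot (5.35) lay 7.11 kb from one end of the gene and 3 (16.3, 14.7 and 15.9) lay 5.32 to 12.1 kb from the other. That cluster, chromosome 21 from 45974256 to 46017533, held 11 Saos-2 hotspots and 0 U2OS hotspots.

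**Figure D3:**
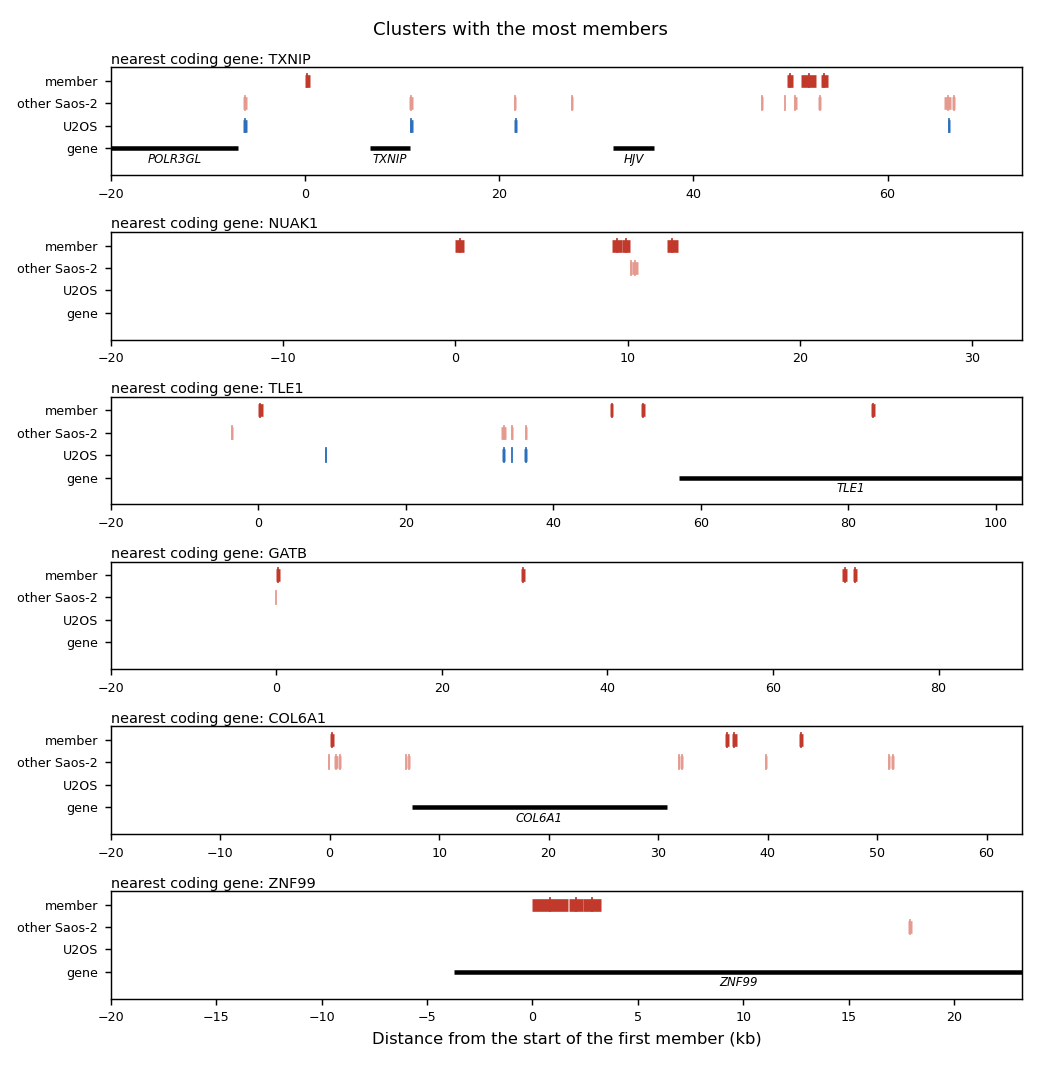
Positions (kb from the start of the first one) of Saos-2-only wide hotspots ("member"), other Saos-2 hotspots, U2OS hotspots and coding genes in the 5 clusters of 4 and in the ZNF99 cluster of 3. The clusters named for NUAK1, GATB, COL6A1 and ZNF99 hold 0 U2OS hotspots and those named for TXNIP and TLE1 hold 2 and 4.

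Within 10 kb of their span, 835 protein-coding genes (4.37% of 19126) had a Saos-2-only wide hotspot, and 1156 (6.04%) a U2OS-only one. Of the 835, 741 had 1, 73 had 2 and 21 had 3 or more. Both kinds were found at 91 genes, 10.9% of the first list and 7.87% of the second. Genes with a Saos-2-only wide hotspot were long, with a median span of 99.1 kb against 24.5 kb for all coding genes, and those with both kinds had 386 kb.

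FGGY, a carbohydrate kinase gene of 466 kb, had 4, all inside the gene, with significances of 9.004, 35.8, 19.7 and 5.97. ZNF99 had 3 in 3.23 kb, of 17.0, 13.8 and 11.7, at least 121.5 kb from any U2OS hotspot. BCAR3, an adaptor in integrin and SRC signalling, had 6.36, 10.98 and 5.85, of which the last also covers the tRNA gene TRR-TCT1-1. SLC25A13, a mitochondrial aspartate-glutamate carrier, had 18.9, 12.6 and 4.46. ELF1 had 16.6, 9.14 and 6.90, all at least 70.7 kb from any U2OS hotspot. UMODL1 (6.27, 13.5 and 3.47), CLYBL (5.19, 10.4 and 9.02) and RBMS3, an RNA-binding protein (10.3, 11.1 and 8.82), had 3 each. So did MAGI2, a synaptic scaffold (14.6, 15.4 and 13.2), but this gene spans 1437 kb and also had 1 U2OS-only wide hotspot. Per 100 kb of gene and flanks the number was 5.77 at ZNF99 and 0.206 at MAGI2.

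At 91 of the 835 genes (10.9%) no U2OS hotspot of any width lay within 10 kb. The ones with most Saos-2-only wide hotspots were ZNF99, CNOT2, OPRM1, the mu opioid receptor, and COL6A1, with 3 each and 4, 5, 9 and 11 Saos-2 hotspots of any width. ZNF729, HDHD5, WBP4, BPHL and NBPF15 followed with 2. Among those with 1 were CAV2, a caveolin, and FZD7, a WNT receptor. The rule bars U2OS hotspots close to each Saos-2-only one, and the share of all coding genes without a U2OS hotspot is not given here. The count of 91 is therefore only a description.

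Functions of nearby genes were described with 21 gene lists, counting genes with a Saos-2-only wide hotspot within 50 kb of the span. A hotspot counted for a listed gene can lie outside it, and inside or nearer to another gene. Over all coding genes the share was 8.42%, and 12.1% for U2OS-only wide hotspots. Of 645 listed genes 99 had one. The share was above that of all coding genes in 16 lists, and above the list's own U2OS-only share in 6. Lists differ in gene length, so a share above the background is not particular to a list. The lists were chosen with earlier results of these data known, so their shares are descriptions.

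Collagens had the highest share. Of 30 genes 9 had a Saos-2-only wide hotspot (interval 16.7 to 47.9%), and 3 a U2OS-only one. COL6A1 had 4 and COL6A2, which encodes another chain of the same collagen, had 1 of significance 10.3. COL4A2 of basement membranes had 11.3 and COL24A1 11.2, both inside the gene. The hotspot assigned to COL10A1 lies at the start of NT5DC1. Among 23 bone matrix and mineralization genes 4 had one and 3 a U2OS-only one. They were COL5A1 with 4 (6.17, 8.67, 5.94 and 15.5), the fibrillin genes FBN1 (19.8) and FBN2 (6.94), and ANKH, a regulator of pyrophosphate (10.5). The COL5A1 hotspots lay 3.9 to 49.9 kb outside the gene, and the FBN2 one 40.4 kb outside it.

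Zinc finger genes of the KRAB family on chromosome 19 encode repressors that mostly bind transposable elements. Of 29 listed genes 8 had a Saos-2-only wide hotspot, 27.6% (14.7 to 45.7%), and 0 a U2OS-only one, which allows a share of up to 10.3%. ZNF99 had 3, ZNF729 had 2 (5.77 and 8.38, at least 209.8 kb from any U2OS hotspot), and ZNF100 had 1 of 20.6 at 121 kb. ZNF681 and ZNF675 share a hotspot, as do ZNF738 and ZNF493. Within 10 kb 6 of the 29 had one, and within 100 kb 13. Of 398 genes on all chromosomes named ZNF with a number and with a given strand, 9 had a Saos-2-only wide hotspot inside the gene. ZNF99, ZNF729 and ZNF738 had no given strand and are not among them. Zinc finger genes with other names were not counted. Of these hotspots 3 of 9 lay in the last of 5 equal parts of the gene, and for U2OS-only ones 4 of 11 did.

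Skeletal and mesenchymal transcription factors had one at 7 of 27 genes (25.9%, 13.2 to 44.7%), and a U2OS-only one at 6. RUNX3, a Runt-domain factor, had 13.1, and TBX15 had 16.8 at 19.9 kb from the gene. NFIA had 9.46 and SOX5, a partner of SOX9 in cartilage, 8.91. Matrix proteases and inhibitors had one at 5 of 27 genes, of which ADAMTS1 and ADAMTS5 share one, and a U2OS-only one at 4. Housekeeping genes had one at 2 of 11 and a U2OS-only one at 0, at distances of 49.4 kb (SDHA) and 27.7 kb (B2M).

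Counts for signalling and adhesion lists are given as Saos-2-only against U2OS-only genes. Over all coding genes these counts were 1610 against 2321, so a lower first number is also the pattern of the background. Receptor tyrosine kinases had 8 of 41 against 12, with 3 hotspots at IGF1R (9.74, 13.8 and 17.2), 2 at KIT and 1 each at EPHB2 (13.6) and MET (5.43). WNT genes had 6 of 41 against 8, with ROR1 (13.0 and 16.6), TCF7, FZD7 and LEF1 (5.36) among them. TGF-beta and BMP genes had 3 of 41 against 8, with SKI (10.5 and 15.5), LTBP1 (13.5) and TGFBR2 (13.9). The SKI hotspots lay 47.5 and 38.2 kb from the gene, inside PRKCZ and FAAP20, and the TGFBR2 one 27.5 kb from its gene. Within 10 kb the count for this list was 1. Actin and focal adhesion genes had 7 of 37 against 9, with VAV2 at 22.2 besides BCAR3. Hippo effectors and targets had 4 of 22 against 6, with 2 hotspots counted for CCN1, a YAP target (7.90 and 17.1). These lay 24.2 and 44.8 kb from CCN1, the first inside DDAH1 and the second nearer to ZNHIT6. Integrins and laminins had 4 of 30 against 8.

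Neuronal adhesion and guidance genes, which are long, had 11 of 42 against 15, with 2 hotspots each at NRP2 and NTN4. Potassium and calcium channels had 6 of 30 against 11, among them CACNA1D, an L-type calcium channel gene, with 20.4. Homeobox genes had 5 of 41 against 9, interferon and inflammatory genes 4 of 37 against 5, and AP-1 factors 2 of 17 against 4, where MAF had 34.2. In 4 lists 1 gene had one: nuclear receptors (RARB, 1 of 35 against 6), cadherins (CDH13, 1 of 28 against 4), keratins and claudins (CLDN18, 1 of 29 against 9) and cell cycle genes (MDM2, 1 of 27 against 2). The MDM2 hotspot, of 36.0, lay 47.0 kb from the gene, inside CPM. For keratins and claudins, 1 of the 21 lists, the Saos-2-only interval, 0.611 to 17.2%, and the U2OS-only interval, 17.3 to 49.2%, nearly touch. Neighbouring genes can count the same hotspot, so these intervals are narrower than the real uncertainty. The CLDN18 hotspot lay 39.0 kb from the gene, and within 10 kb the Saos-2-only count of the list was 0.

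**Figure D4:**
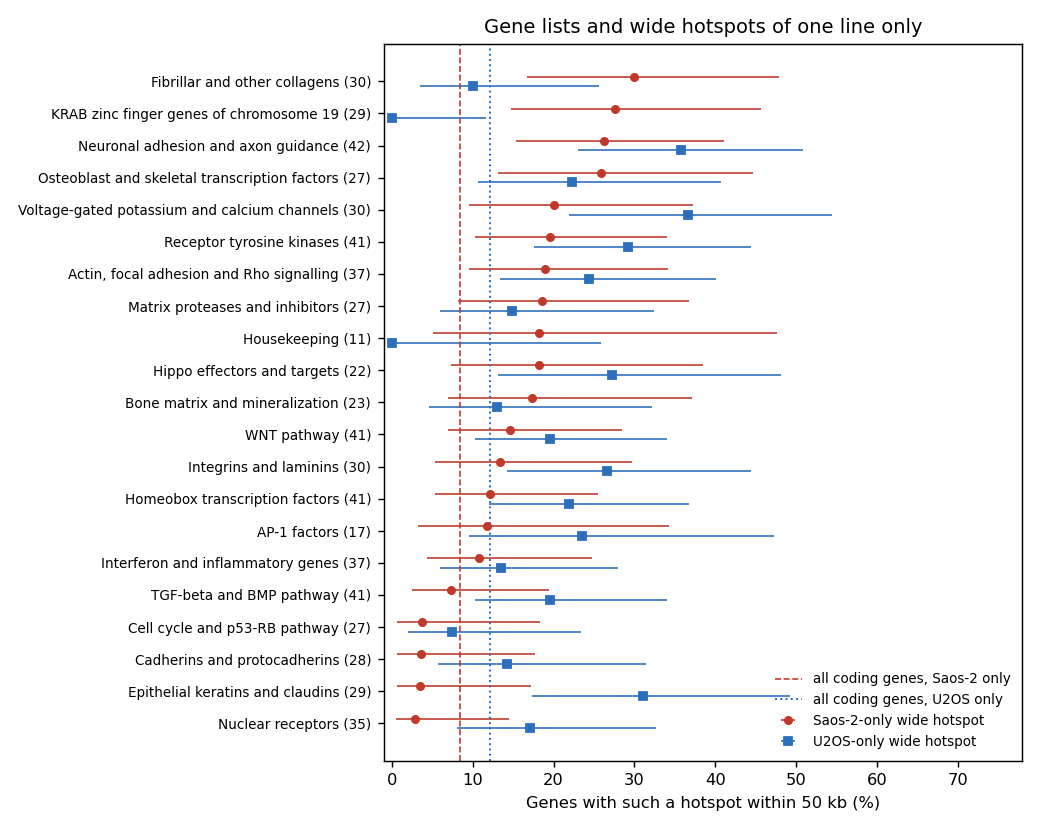
Share of genes (%, horizontal) with a Saos-2-only or U2OS-only wide hotspot within 50 kb for 21 lists, with the number of genes in parentheses; bars are Wilson 95% intervals and vertical lines the shares of all coding genes (8.42 and 12.1%). Collagens (9 of 30) and chromosome 19 KRAB genes (8 of 29) have the highest Saos-2-only shares.

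By chromosome, Saos-2-only wide hotspots took 11.5 to 27.9% of the wide Saos-2 hotspots, with a median of 14.3%. Chromosome 21 was highest with 39 of 140 (27.9%, 21.1 to 35.8%), followed by chromosome 9 with 88 of 410 (21.5%) and chromosome 6 with 140 of 671 (20.9%). The intervals of these 3 overlap. Chromosomes 22 (11.5%), 11 (11.8%) and 19 (12.1%) were lowest. The Saos-2-only share was above the U2OS-only share on 3 of 22 chromosomes, namely 6, 9 and 21, and the intervals of both lines overlap on each. The U2OS list is longer, with 63388 hotspots against 51556. With lists of equal length the Saos-2-only share over all 22 chromosomes was 18.2% and the U2OS-only share 20.6%. The count by chromosome was not repeated with equal lists.

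**Figure D5:**
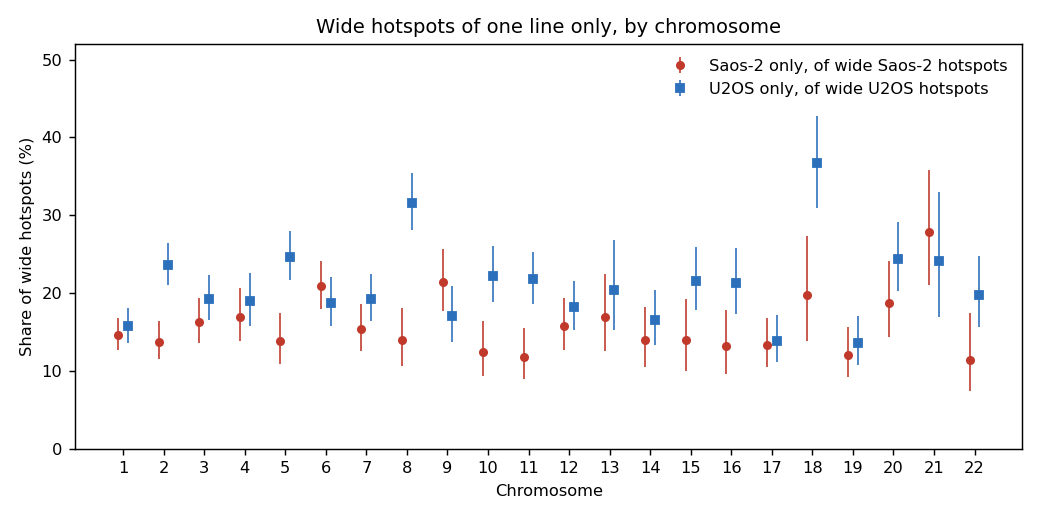
Share of wide hotspots (%, vertical) found only in Saos-2 (circles) or only in U2OS (squares) on chromosomes 1 to 22 (horizontal), with Wilson 95% intervals. Chromosome 21 has the highest Saos-2-only share, 27.9%, and chromosomes 6, 9 and 21 are the ones where the circle is above the square.

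In windows of 10 Mb the median number was 4, and 25 of 294 windows with any hotspot had none. The most, 19, lay in the first 10 Mb of chromosome 1 and in chromosome 9 from 80 to 90 Mb. In the latter they were 19 of 52 wide hotspots, and U2OS-only ones numbered 4. Chromosome 21 from 40 to 50 Mb, the region of COL6A1, had 17 of 45 against 1 U2OS-only. Chromosome 6 from 0 to 10 Mb had 16 of 42 against 10, and chromosome 19 from 20 to 30 Mb, with ZNF99, 13 of 32 against 7.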

How the data were processed

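DNase-seq hotspots of Saos-2 and U2OS, 1 library each, were analysed on hg38. Per the submitters' processing notes, Trimmomatic 0.38 and BWA 0.7.15 were used; the hotspot caller, read filters and depth are not given in the sources used here. Each deposited list gives a −log10 value per hotspot, taken as the authors' significance (lowest 1.30, cap 100) and used only to describe and rank hotspots. The deposited score column was not used.

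Members were found by the stated rule in Python 3.11.15 (pandas 2.3.3, numpy 2.4.6), and Wilson 95% intervals came from scipy 1.17.1. Gap, chain and distance functions were tested on simulated data. A limit given for a count of 0 is 3 counts. Genes, promoters and microRNAs came from RefSeq, GRCh38.p14, matched by symbol; 645 different listed genes matched. No genome sequence was used, so motifs were counted in promoter windows only, 1 count per gene.

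The rule for naming took the 10 most significant and 10 widest members, the 10 genes and 5 clusters with most members, and up to 4 genes per list; some of the items it selects are not reported here. Small RNA, histone, promoter and 10 Mb examples and other genes were chosen after their values were seen. Members and lists were chosen with earlier results of these data known. Alternatives varied width, distance, chains, significance, merging, list length, gene set and windows.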

Additional observations from a re-analysis of the deposited data

How the results depend on the processing

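No paired analysis was possible because each line had 1 library. Leaving out a replicate was likewise not possible. Of 115 recomputed values, 73 were of main results and 42 of gene lists. A share was taken to have moved when it left the Wilson 95% interval of its main value, and a count when it changed by over 1.5-fold. By this 33 of the 73 and 13 of the 42 moved. Counts and shares have no sign, so a change of direction could not occur. A width of at least 300 bp gave 3368 hotspots (19.3% of wide), 28.7% in clusters and 1826 genes. At 600 bp there were 299 (11.7%), with 7.69% near a start, 47.5% inside a gene, 8.70% in clusters and 180 genes. Asking only for no overlap gave 18.2% of wide and 7.89% near a start, and a distance of 10 kb gave 10.9% of wide. With chains kept, the values were 16.6% of wide, 47.7% inside a gene and 22.7% in clusters. A −log10 of at least 3 in both lists gave 20.7% of wide, 8.90% near a start and 21.2% in clusters, merging gave 16.6% of wide and equal lists 18.2%. With all annotated genes 12.04% lay near a start and 66.7% inside a gene, and within 2.5 kb 7.98% lay near a start. Clusters held 10.1% with 20 kb and 25.9% with 100 kb, and 1610 genes had a member within 50 kb. As a share of Saos-2 hotspots of all widths, chromosomes 21, 9, 6, 22, 11 and 19 had 5.49, 3.98, 3.81, 1.95, 1.89 and 2.78%. These shares have another denominator, and chromosomes 21, 9 and 6 remained ranks 1 to 3. Chromosome 19 moved from rank 20 to 11. Widths, distances and windows change the numbers by construction; for the other settings the cause was not tested. Unknown depth limits every statement that a U2OS hotspot was not called.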
